A study of Mus musculus with 8 samples.

Results

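The Myc, Max and Mxd network comprised 10 genes chosen by symbol, namely Myc, Mycn, Max, Mxd1, Mxd3, Mxd4, Mxi1, Mnt, Mga and Mlx. All 10 were found among the 41249 genes of the deposited gene table, and 9 of them had enough counts to be tested. Mycn had 0 to 4 counts per library and was not tested. RNA was measured by sequencing in CD43-negative B cells of the mouse spleen, taken directly from the animal (resting) or cultured with 5 µg/mL of lipopolysaccharide (LPS), a bacterial product that B cells sense through TLR4, for 48 hours (stimulated). Mice were wild-type or homozygous for 1 of 3 deletions, called 3'RR, hs3b-hs4 and 3'PAL. All were on a mixed background given as 129/C58BL/6. The 3'RR is a group of enhancers at the 3' end of the immunoglobulin heavy chain (IgH) locus, removed as a whole by the 3'RR deletion, and hs3b and hs4 are enhancers within it. The labels give only the name of the 3'PAL deletion. Each of the 4 genotypes gave 1 library in each state, made from a pool of 4 animals. The comparisons ask how the cells differ after culture with LPS and what each deletion changes. No library was cultured without LPS, so LPS and time in culture cannot be told apart. Below, "with LPS", "after LPS" and "response to LPS" stand for both together.

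MYC is a transcription factor that drives growth and division, and it binds DNA only as a pair with MAX. MAX also pairs with the MXD proteins (encoded by Mxd1, Mxi1, Mxd3 and Mxd4) and with MNT and MGA, which compete with MYC for MAX and for the same sites and recruit repressor complexes. MLX is a MAX-like partner of MXD1, MXD4, MNT and the sugar-sensing MondoA and ChREBP proteins. In B cells Myc is known for its brief induction after activation and for its translocation into the IgH locus in lymphomas.

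The site shared by these pairs is the E-box, spelled CACGTG, which reads the same on both strands. RefSeq windows from 250 bases before to 50 bases after a gene's start (build GRCm38.p6) were matched for 9 of the 10 members, the exception being Myc. An E-box was found in 4 of the 11 windows of these 9 members, 1 in each of 4 genes, and in 7.15% of the 32851 windows of all genes. The matches are shown because they are the letters that the network's own proteins are known to read, with the E-box in capitals, 5′ to 3′ on the gene's strand. The match of Max lies at chr12:76962246-76962251 (minus strand) and begins 3 bases before its start, that of Mlx at chr11:101087250-101087255 (plus strand), 40 bases before, that of Mnt at chr11:74830801-74830806 (plus strand), 123 bases before, and that of Mxd4 at chr5:34187924-34187929 (minus strand), 219 bases before. A match describes letters in a window, and binding was not measured.
Max: gagcccggtCACGTGttagggggc
Mlx: gggttggatCACGTGactgagcct
Mnt: cacccaagcCACGTGtgcgcgcgc
Mxd4: ctgggccacCACGTGctgttgcta

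Total counts ran from 17883683 to 28785192 per library, so that 3 counts equalled 0.106 to 0.156 CPM (counts scaled to library size, here with TMM factors). B cell markers summed to 3526 to 3705 CPM in resting and 2673 to 3303 CPM in stimulated libraries, with all 8 present in each library. The 8 erythroid markers in the table summed to 3109 to 21520 CPM in resting and 10.4 to 244 CPM in stimulated libraries. The 11 monocyte and macrophage markers summed to 272 to 1223 CPM in resting and 3.03 to 10.6 CPM in stimulated libraries, and C1qc was at 0 in all 4 of the latter. T cell markers summed to at most 64.7 CPM, and they differed among themselves. Cd3e was at or below 0.156 CPM. Cd4 stood at 10.05 to 40.2 CPM and Cd8a at 2.49 to 13.4 CPM in resting libraries. In stimulated libraries they were at most 0.186 and 0.0372 CPM. Lck stood at 10.8 to 21.5 CPM over all libraries. The 6 neutrophil markers summed to 2.38 to 8.61 CPM in resting and 0.0353 to 0.223 CPM in stimulated libraries. Among them Csf3r was the highest in each resting library, at 1.64 to 6.19 CPM, and Ly6g was at 0 in all libraries. The wild-type resting library stood apart in that 1.94% of its counts fell on AY036118, against at most 0.0842% in the others. Fitted values that it moves by over 1.5 times are also given without it, and every resting ratio to the wild-type shares it.

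Between resting libraries and those cultured with LPS the network moved in both directions. Myc fell between 3.62-fold and 5.59-fold within the genotypes, the repressors Mnt, Mxd1, Mxd4, Mxi1 and Mga fell with it, and Mxd3 and Mlx rose, while Max, the shared partner, did not pass the test. By edgeR's quasi-likelihood test with Benjamini-Hochberg adjustment over 14789 genes, 2 of the 9 tested members rose and 6 fell at an adjusted p under 0.05. Over all genes tested, 34.5% rose and 35.2% fell, so most genes changed, and nothing particular to the network is read from its counts. The members' median log2 fold change was -0.92, and that of all genes -0.02. Resting and stimulated levels did not overlap for 5 members that fell and 2 that rose, against 31.3% and 30.8% of all genes tested. The 4 genotypes served as the replicates of stimulation, and in bulk samples fewer cells of a type and less RNA per cell cannot be told apart.

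**Figure D1:**
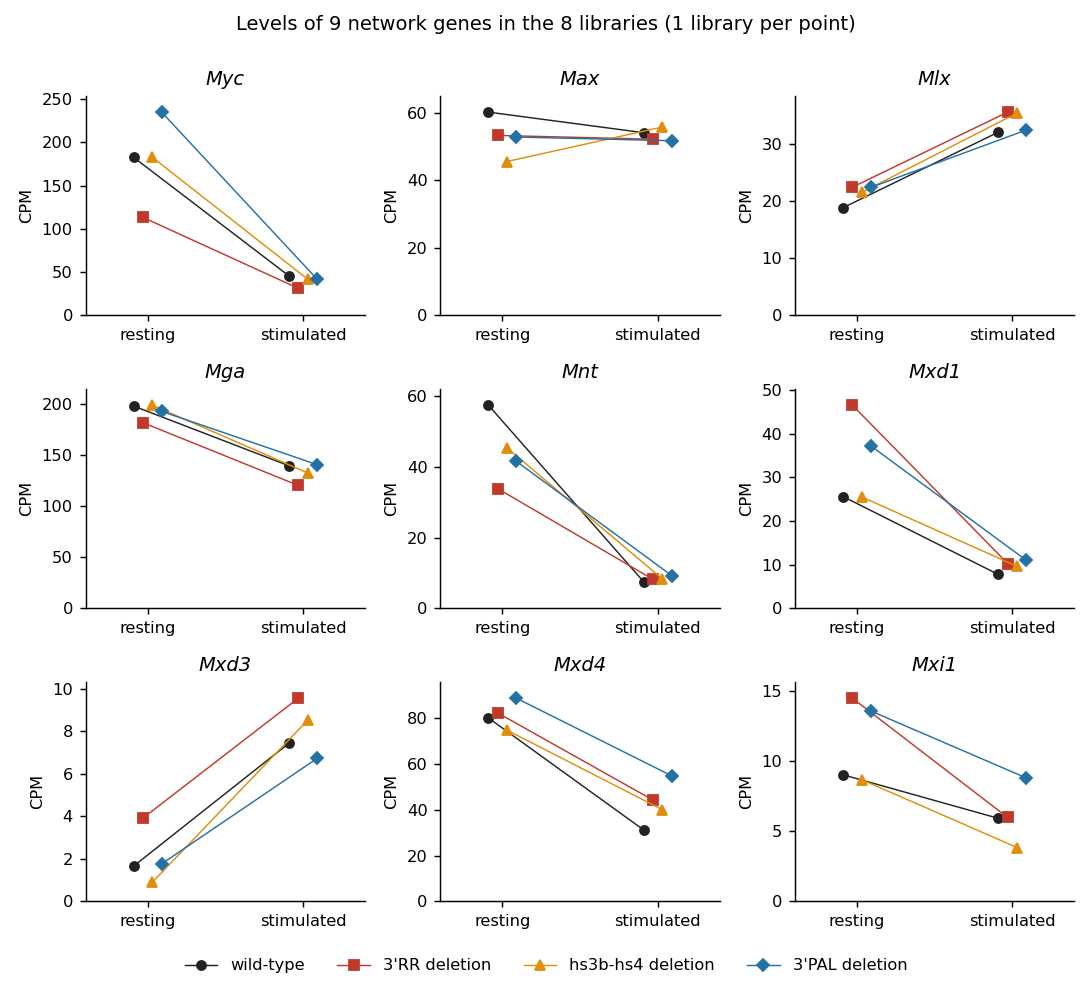
Level of each tested member in CPM (y axes, each from 0) in resting and stimulated libraries, 1 point per library, with lines joining the libraries of a genotype. Myc lies between 113 and 235 CPM at rest and between 31.2 and 45.6 CPM after LPS, while Max lies between 45.6 and 60.3 CPM in all 8 libraries.

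Myc (ENSMUSG00000022346, chr15:61985341-61990374, plus strand) stood at 183 CPM in the wild-type, 113 in the 3'RR deletion, 183 in the hs3b-hs4 deletion and 235 in the 3'PAL deletion resting library. After LPS its level was 45.6 CPM in the wild-type, 31.2 in the 3'RR deletion, 41.8 in the hs3b-hs4 deletion and 42.0 in the 3'PAL deletion library. The groups did not overlap, and the 3'RR deletion library was the lowest in both states. The log2 fold change was -2.12 ± 0.117 (SE, adjusted p = 1.24e-05, edgeR), and the fall within a genotype ran from 3.62-fold (3'RR deletion) to 5.59-fold (3'PAL deletion). Mycn (ENSMUSG00000037169), the neuronal relative of Myc, had at most 0.156 CPM, which is at the 3-count floor.

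Mnt (ENSMUSG00000000282, chr11:74830920-74845725, plus strand) encodes the most widely expressed of the repressors that pair with MAX. It stood at 57.4 CPM in the wild-type, 33.8 in the 3'RR deletion, 45.3 in the hs3b-hs4 deletion and 41.5 in the 3'PAL deletion resting library, and at 7.51, 8.18, 8.32 and 9.27 CPM in the stimulated libraries in the same order. All 4 genotypes fell, and the wild-type library went from the highest resting to the lowest stimulated level. The log2 fold change of -2.40 ± 0.157 (adjusted p = 2.10e-05, edgeR) was the largest fall among the members.

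Mxd1 (ENSMUSG00000001156, chr6:86647044-86669159, minus strand) encodes a repressor linked to cell cycle exit. Its resting level was 25.6 CPM in the wild-type, 46.5 in the 3'RR deletion, 25.5 in the hs3b-hs4 deletion and 37.2 in the 3'PAL deletion library, and its stimulated level 7.76, 10.3, 9.63 and 11.0 CPM in that order. The groups did not overlap, and the log2 fold change was -1.77 ± 0.135 (adjusted p = 3.50e-05, edgeR). Mxd4 (ENSMUSG00000037235, chr5:34173887-34187720, minus strand), a repressor of the same family, went from 80.1, 82.3, 74.8 and 88.8 CPM to 31.2, 44.3, 40.1 and 54.9 CPM in the same order of genotypes. Its groups did not overlap either, and its log2 fold change was -0.96 ± 0.116 (adjusted p = 0.000272, edgeR).

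Mxi1 (ENSMUSG00000025025, chr19:53310506-53375810, plus strand), also a repressor that pairs with MAX, went from 9.03, 14.5, 8.69 and 13.6 CPM at rest to 5.92, 5.99, 3.84 and 8.81 CPM after LPS. Each genotype fell, but the stimulated 3'PAL deletion library lay just above the resting hs3b-hs4 deletion library, so the groups overlapped. The log2 fold change was -0.92 ± 0.160 (adjusted p = 0.00167, edgeR). Mga (ENSMUSG00000033943, chr2:119897228-119969581, plus strand), a large protein that pairs with MAX inside a Polycomb complex, fell least. Its level was 182 to 199 CPM at rest and 120 to 141 CPM after LPS, a log2 fold change of -0.53 ± 0.0755 (adjusted p = 0.000582, edgeR).

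Mxd3 (ENSMUSG00000021485, chr13:55325168-55329758, minus strand) was the family member that rose. It is known to be expressed in dividing cells, unlike the other Mxd genes, which are linked to differentiation. Its resting level was 1.66 CPM in the wild-type, 3.92 in the 3'RR deletion, 0.896 in the hs3b-hs4 deletion and 1.76 in the 3'PAL deletion library, and its stimulated level 7.44, 9.56, 8.52 and 6.72 CPM in that order. The groups did not overlap, with a log2 fold change of 2.09 ± 0.301 (adjusted p = 0.000645, edgeR). The resting values rest on only 23 to 111 counts, and the rise ran from 2.44-fold in the 3'RR deletion to 9.51-fold in the hs3b-hs4 deletion.

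Mlx (ENSMUSG00000017801, chr11:101087277-101092207, plus strand) rose from 18.8 to 22.4 CPM at rest to 32.0 to 35.5 CPM after LPS, with no overlap. Its log2 fold change was 0.67 ± 0.0838 (adjusted p = 0.000319, edgeR). Max (ENSMUSG00000059436, chr12:76937269-76962248, minus strand) stood at 60.3 CPM in the wild-type, 53.4 in the 3'RR deletion, 45.6 in the hs3b-hs4 deletion and 52.9 in the 3'PAL deletion resting library, and at 54.2, 52.2, 55.8 and 51.8 CPM after LPS. The groups overlapped, and the log2 fold change was 0.02 ± 0.0933 (adjusted p = 0.869, edgeR).

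**Figure D2:**
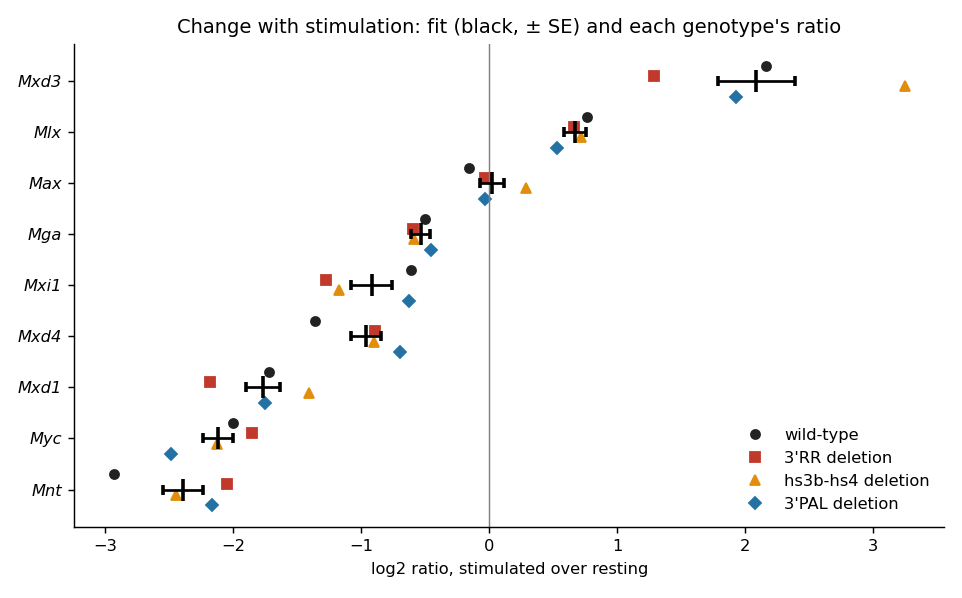
Log2 ratio of stimulated over resting level (x axis) for the 9 tested members, ordered by size, with the fitted value and its SE in black and each genotype's own library ratio as a coloured point. All 4 genotypes lie below 0 for Mnt, Myc, Mxd1, Mxd4, Mxi1 and Mga and above 0 for Mlx and Mxd3, and they lie on both sides of 0 for Max.

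Summed erythroid, monocyte and macrophage, T cell, neutrophil and platelet markers fell over the same libraries as the 6 members that fell. Their part in these falls was not tested.

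Levels of different genes were set beside each other only per transcript length, as the deposited TPM (a level per length and library), and only within a library. Myc ranked first among the 10 members in all 4 resting libraries, at 68.0 to 128 TPM. Max, Mga and Mxd4 took the next 3 places there, with Max between 23.3 and 37.2 TPM. After LPS, Max and Mlx held the first 2 places in all 4 libraries, at 30.2 to 34.2 TPM and 29.7 to 34.5 TPM, and could not be ordered between themselves. Myc was the third in the wild-type library (27.5 TPM) and the fourth, behind Mga, in the 3 mutant libraries (16.6 to 25.2 TPM). Mxd3 rose to the sixth place in every stimulated library, at 6.90 to 9.24 TPM, above Mnt, at 2.06 to 2.99 TPM.

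Set against 5 of its competitors, Myc was lower after LPS in all 4 genotypes. The ratio of Myc TPM to the summed TPM of Mxd1, Mxd3, Mxd4, Mxi1 and Mnt was 1.93 in the wild-type, 1.21 in the 3'RR deletion, 2.20 in the hs3b-hs4 deletion and 2.37 in the 3'PAL deletion resting library. It was 1.13, 0.574, 0.855 and 0.775 in the stimulated libraries in the same order. In TPM the ratio was above 1 in all resting libraries and below 1 in the stimulated libraries of the 3 mutants, and the 3'RR deletion library had the lowest value of its state both times. On TMM-scaled CPM per kb its resting ratio was below 1, at 0.952. Mga was left out of the sum, and with it added the TPM ratio was 1.18, 0.75, 1.19 and 1.46 at rest and 0.571, 0.339, 0.459 and 0.43 after LPS. The log2 ratio changed by -1.21 ± 0.362 (SD, n = 4 genotypes), from -1.61 to -0.77. The makeup of the competitors changed as well. Mxd3 gave 3.42 to 7.66% of their summed TPM at rest and 21.2 to 33.0% after LPS, while the share of Mnt went from 20.3 to 33.6% to 7.14 to 10.1%. Mxd4 was the largest in all 8 libraries, at 42.6 to 54.1%. Transcripts of Max came to 0.141 to 0.203 of the summed TPM of Myc and its competitors with Mga at rest, and to 0.389 to 0.461 after LPS.

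**Figure D3:**
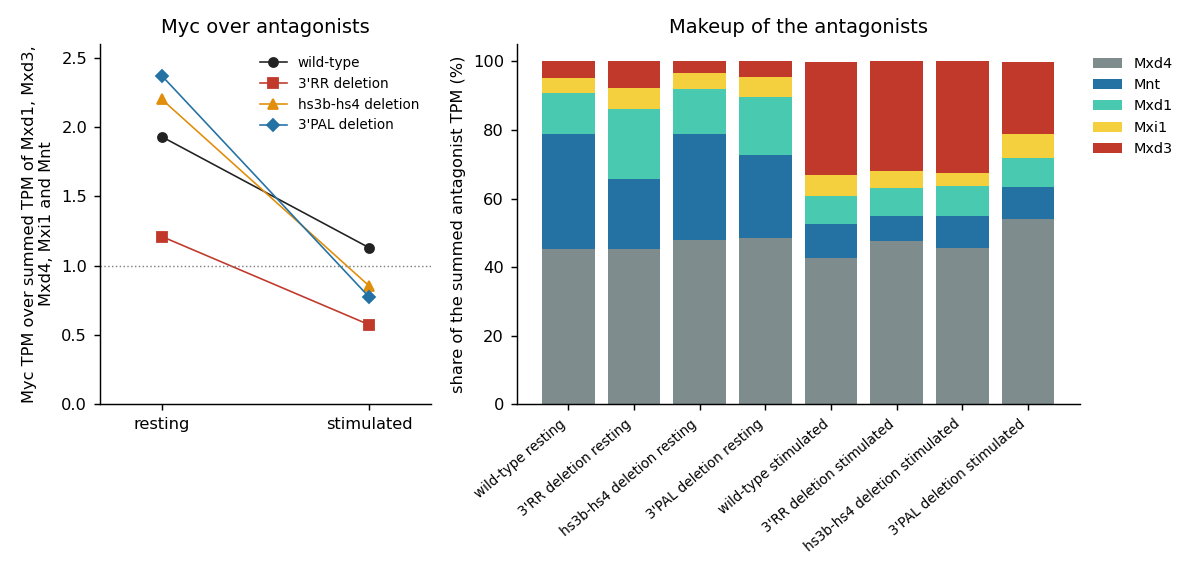
Left, ratio of Myc TPM to the summed TPM of its 5 competitors (y axis) in each library, with a dotted line at 1. Right, share of each competitor in that sum in percent, where Mxd3 takes 3.42 to 7.66% of each resting bar and 21.2 to 33.0% of each stimulated bar.

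The shares of the 2 Max transcripts and of some Mlx transcripts also differed between resting and stimulated libraries, in the same direction in all 4 genotypes. So did shares of some transcripts of Myc, Mxd3, Mxd4, Mxi1 and Mga, so this trait is not particular to Max and Mlx. The exact test that the design allows cannot reach 0.05. The 2 Max transcripts in the deposited table, ENSMUST00000110395 and ENSMUST00000082136, differ in length by 27 bases, which is exon 2 at chr12:76961263-76961289 (GRCm38, minus strand, coding). The exon adds 9 codons near the start of the protein and is known to make the long form of MAX. Transcripts ENSMUST00000107302 and ENSMUST00000107303 of Mlx differ by exon 3, a coding exon of 90 bases (30 codons) at chr11:101088236-101088325 (plus strand). The coding sequences across these junctions are shown from GENCODE transcripts of the same build, with the alternative exon in capitals and 12 bases on each side, since they are what the shares below tell apart.
Max with exon 2: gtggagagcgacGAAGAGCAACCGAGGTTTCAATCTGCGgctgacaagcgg
Max without exon 2: gtggagagcgacgctgacaagcgg
Mlx with exon 3: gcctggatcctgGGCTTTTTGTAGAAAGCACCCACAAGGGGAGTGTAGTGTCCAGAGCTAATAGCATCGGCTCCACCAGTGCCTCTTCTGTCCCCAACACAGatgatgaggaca
Mlx without exon 3: gcctggatcctgatgatgaggaca

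The Max transcript with exon 2 made up 48.6% of the gene's estimated counts in the wild-type, 51.0% in the 3'RR deletion, 46.7% in the hs3b-hs4 deletion and 47.4% in the 3'PAL deletion resting library. After LPS its share was 30.5%, 24.7%, 34.2% and 26.0% in that order. The share was lower in all 4 genotypes, by 19.5 ± 5.81 percentage points (SD, n = 4), while the summed level of Max was not called as changed. The exact sign-flip test over 4 genotypes gave p = 0.125, the smallest it can give (Benjamini-Hochberg 0.321 over 36 transcripts).

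For Mlx, the transcript with exon 3 named above went from 50.7%, 60.6%, 58.6% and 59.9% of the estimated counts at rest to 39.5%, 45.5%, 42.5% and 45.0% after LPS, with the genotypes in the same order. The mean difference was -14.3 points (SD 2.16, n = 4, exact sign-flip p = 0.125). The transcript without exon 3 went from 15.7%, 10.4%, 9.46% and 13.7% to 24.9%, 13.5%, 20.0% and 21.2%, which was higher in all 4 genotypes. The rest of the loss went to other Mlx transcripts, with mean differences of 2.84 points for ENSMUST00000143344, 2.52 for ENSMUST00000017945 and 1.36 for ENSMUST00000149411, so the shares do not come down to exon 3 alone. Mxi1 has a transcript from an upstream first exon, ENSMUST00000003870, whose mean share was 20.2% at rest and 45.5% after LPS, higher in 3 of 4 genotypes on a mean of 79.5 estimated counts. The mean share of its transcript ENSMUST00000025998 was 60.6% at rest and 43.3% after LPS, lower in all 4 genotypes. The main Mxd3 transcript, ENSMUST00000021941, took 75.6 to 86.9% at rest and 87.7 to 91.0% after LPS. Kallisto's division of reads between transcripts of a gene carries an uncertainty of its own, which the table does not give.

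**Figure D4:**
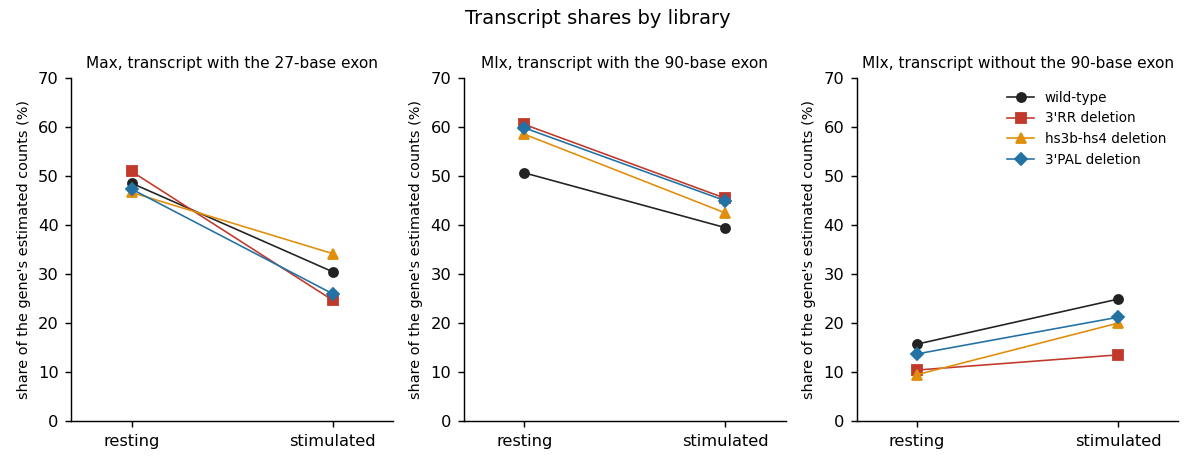
Share of a transcript in the estimated counts of its gene in percent (y axes, from 0) at rest and after LPS, with 1 line per genotype. The Max transcript with the 27-base exon falls from 46.7 to 51.0% to 24.7 to 34.2%, and the Mlx transcript with the 90-base exon is lower in each genotype.

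No member passed the test for any deletion. Across both states, edgeR called 0.866% of genes higher and 1.01% lower in the 3'RR deletion (128 and 150 genes, or 73 and 147 with library size scaling), 0.0676% higher and 0.0676% lower in the hs3b-hs4 deletion, and 0.338% higher and 0.176% lower in the 3'PAL deletion, and 0 of 9 members in each, under all alternatives run. At an unadjusted p under 0.05 there were 2 members for the 3'RR deletion, 0 for the hs3b-hs4 deletion and 3 for the 3'PAL deletion, where 13.7%, 8.9% and 9.55% of all 14789 genes were, and DESeq2 called 0 members too. Myc came closest, with a log2 fold change of -0.61 ± 0.160 in the 3'RR deletion (adjusted p = 0.139, edgeR). Over 8 alternative settings this value ran from -0.69 to -0.62 and the adjusted p from 0.0510 to 0.315, the latter without the wild-type resting library. For Mxd1 in the 3'RR deletion the log2 fold change was 0.66 ± 0.187 (adjusted p = 0.175, edgeR). In the 3'PAL deletion Mxd1 had a value of 0.52 ± 0.188 (adjusted p = 0.432), Mxd4 of 0.47 ± 0.163 (adjusted p = 0.409) and Mxi1 of 0.58 ± 0.224 (adjusted p = 0.473), all by edgeR. Without the wild-type resting library, Mxd4 in the 3'PAL deletion was at 0.75 and Mxi1 at 0.38. Mxd4 in the 3'RR deletion was then at 0.54. Mnt, at -0.37 ± 0.214 in the 3'RR deletion (adjusted p = 0.513, edgeR), went to 0.03 without the wild-type resting library.

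Within a state, where each genotype is 1 library and no test can be made, ratios are given with 95% intervals of counting error only (exact conditional binomial). The 3'RR deletion had 0.620 times the wild-type Myc level at rest (0.591 to 0.650) and 0.686 times after LPS (0.628 to 0.749). Ratios of the other mutants for Myc were 1.00 (0.957 to 1.05) in the hs3b-hs4 deletion and 1.29 (1.23 to 1.34) in the 3'PAL deletion at rest, and 0.918 (0.845 to 0.996) and 0.922 (0.851 to 0.998) after LPS. The interval of the 3'RR deletion lay below those of both other mutants in each state. Resting Mnt was below the wild-type library in all 3 mutants, at 0.589, 0.790 and 0.724 times in the 3'RR, hs3b-hs4 and 3'PAL deletions, and stimulated Mnt was at 1.09, 1.11 and 1.23 times. In deposited TPM, without the TMM scaling, resting Mnt was instead lowest in the wild-type library, at 11.8 TPM against 13.1, 15.9 and 13.0, and resting Myc was at 68.0 TPM in the wild-type and 78.5 in the 3'RR deletion, so both directions turned. Stimulated Mnt in the 3'RR deletion turned as well, to 0.836 times the wild-type TPM. On that scale the median log2 ratio to the resting wild-type library over 12429 genes was 0.90, 0.83 and 0.66 in the 3 mutants, against 0.08, 0.08 and 0.06 in TMM-scaled CPM, and Myc in the 3'RR deletion lay below that median on either scale. Stimulated Mxd4 was above the wild-type library in all 3 mutants, at 1.42, 1.28 and 1.76 times. The summed plasma cell markers of the stimulated libraries were 970.5 CPM in the wild-type and 2115, 1379 and 1571 CPM in the 3 mutants in the same order. Among them Igj stood at 166, 1018, 467 and 609 CPM and Irf4 at 424, 425, 423 and 412 CPM, the wild-type first. At rest the sums were 956.5, 1019, 1829 and 1633 CPM in that order. The part of these markers in the Mxd4 ratios was not tested.

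Resting Mxd1 was 1.82 times the wild-type level in the 3'RR deletion (1.64 to 2.02) and 1.45 times in the 3'PAL deletion (1.3 to 1.62), against 0.997 in the hs3b-hs4 deletion. Resting Mxi1 had the same order, at 1.61, 1.5 and 0.962 times. Resting Mxd3 was 2.36 times the wild-type level in the 3'RR deletion (1.58 to 3.61). Beside these, the red cell membrane gene Slc4a1 stood at 16.6 CPM in the wild-type, 373 in the 3'RR deletion, 58.0 in the hs3b-hs4 deletion and 437 in the 3'PAL deletion resting library. The summed erythroid markers were 3109, 13440, 10710 and 21520 CPM, and the summed monocyte and macrophage markers 375, 1223, 541 and 272 CPM in the same order. The part of these cells in the resting ratios was not tested. In stimulated libraries Mxd1 was 1.32, 1.24 and 1.42 times the wild-type level in the 3'RR, hs3b-hs4 and 3'PAL deletions, and Mxi1 1.01, 0.649 and 1.49 times. The summed erythroid markers there were 10.4 CPM in the wild-type and 154, 43.2 and 244 CPM in the mutants in that order, and their part was not tested.

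**Figure D5:**
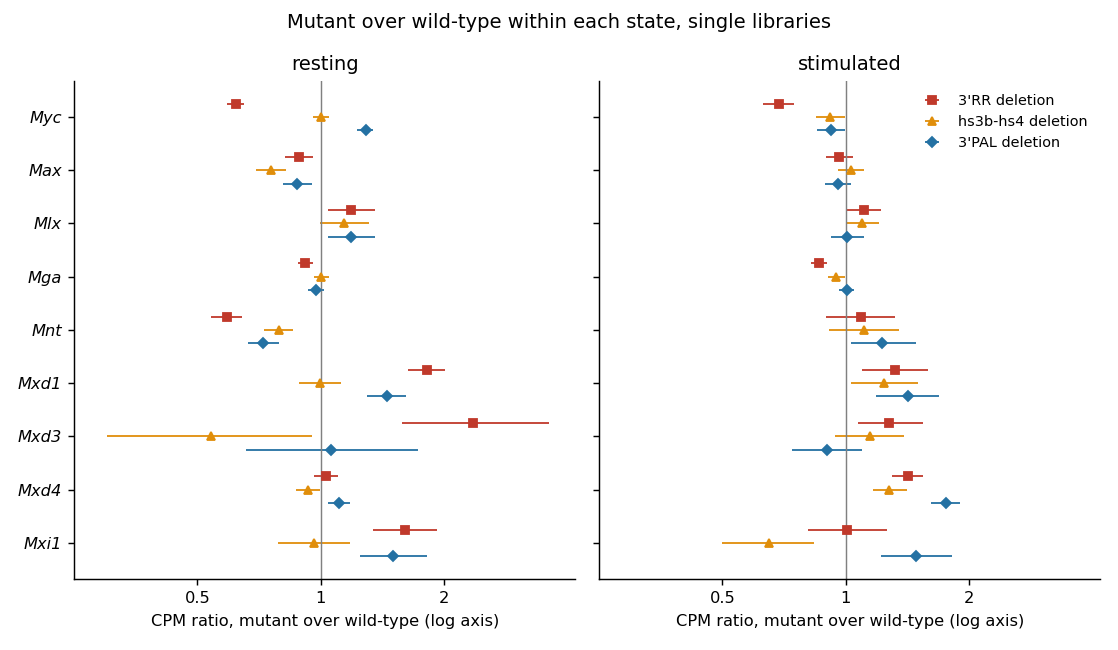
Ratio of each mutant library to the wild-type library of the same state (x axis, logarithmic) for 9 members, with bars for the 95% interval of counting error only. Myc in the 3'RR deletion lies at 0.620 at rest and 0.686 after LPS, and resting Mxd1 and Mxi1 lie above 1 in the 3'RR and 3'PAL deletions.

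By a rule of size (log2(CPM + 1) values that differ by 1 or more, and 10 CPM or more in the higher library), 0 members differed from the wild-type in any mutant library. The members that reached 10 CPM numbered 8, 7 and 8 at rest in the 3'RR, hs3b-hs4 and 3'PAL deletions, and 6, 5 and 6 after LPS. Mxd3 was below 10 CPM in every library and could not meet the rule. Of all genes that could meet the rule at rest, 5.68% did so in the 3'RR deletion, 3.65% in the hs3b-hs4 deletion and 3.63% in the 3'PAL deletion. After LPS the shares were 3.25%, 1.47% and 3.06%. Genotypes without hs3b and hs4 (3'RR and hs3b-hs4 deletions) were also set against those that keep them (wild-type and 3'PAL deletion). The shares of genes called by edgeR were 0% higher and 0% lower at rest, after LPS and for the difference in response to LPS (869, 394 and 307 genes at an unadjusted p under 0.05). DESeq2 called 62 genes higher and 14 lower at rest and 2 higher and 5 lower after LPS, with 0 members among them. For Myc the log2 fold change was -0.50 ± 0.257 at rest (adjusted p = 0.896, edgeR), -0.26 ± 0.259 after LPS (adjusted p = 1, edgeR) and 0.24 ± 0.364 for the difference in response (adjusted p = 1.00, edgeR). Leaving out 1 library moved the resting value from -0.89 (without the hs3b-hs4 deletion) to -0.19 (without the 3'RR deletion) and the stimulated value from -0.49 to -0.05 in the same order. The difference in response ran from 0.63 (without the resting hs3b-hs4 deletion library) to -0.07 (without the resting 3'RR deletion library), which turned its sign. Different genotypes serve as replicates in this comparison.

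The gene expression profile most like that of Myc over the 8 libraries, by the root mean square difference of log2(CPM + 1) centred on each gene's mean, was that of Cr2, the complement receptor of mature B cells, at 0.131. It was followed by Gdap10 at 0.186, Tm6sf1 at 0.188, Sik1 at 0.200 and Rel, an NF-kB subunit, at 0.202, out of 4391 genes with a median of 1.15. Cr2 stood at 1012, 698, 1265 and 1198 CPM in the wild-type, 3'RR deletion, hs3b-hs4 deletion and 3'PAL deletion resting libraries, and at 258, 174, 223 and 234 CPM after LPS, so that its 3'RR deletion library was also the lowest in each state. Among the members the nearest to Myc was Mnt, at 0.294, and the farthest Mxd3, at 1.97.

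Of the other network genes, Mycl, another MYC family member, fell (log2 fold change -2.29 ± 0.379, adjusted p = 0.00129, edgeR). It stood at 4.2, 11.1, 5.41 and 4.18 CPM at rest and at 0.781 to 1.41 CPM after LPS. The highest value, in the 3'RR deletion, was in the library with the highest monocyte and macrophage markers (1223 CPM), whose part was not tested. Mlxip, which encodes the MLX partner MondoA, fell by 0.93 ± 0.135 on the log2 scale (adjusted p = 0.000672, edgeR). Pvt1, the noncoding neighbour of Myc, rose (0.74 ± 0.136, adjusted p = 0.00222, edgeR), and was not analysed with kallisto's estimated counts. Zbtb17, which encodes the MYC partner MIZ1, had a value of -0.17 and did not pass, and Mycs and Mlxipl were not tested.

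Most of the listed MYC-activated genes rose while Myc fell. Of 32 tested, 29 rose, 0 fell and 3 did not pass, with a median log2 fold change of 1.55, against 34.5% of all genes that rose. The gene lists used here were chosen with earlier results of these data known, so their counts are description only. Ldha, the last enzyme of glycolysis, went from 98.3 to 131 CPM at rest to 586 to 759 CPM after LPS (log2 fold change 2.50 ± 0.124, edgeR). Shmt2, a mitochondrial enzyme of serine use, rose by 2.00 ± 0.0782 and Apex1, a DNA repair enzyme, by 1.74 ± 0.0885 on the same scale. The 3 that did not pass, named after their values were seen, were Odc1 at -0.09, Gnl3 at 0.22 and Tert at 0.22. Of 12 known MYC-repressed genes tested, 7 fell, 4 rose and 1 did not pass. Klf4, which restrains division in resting lymphocytes, fell by 5.99 ± 0.120, Btg1 by 2.72 ± 0.126 and Gadd45a by 1.71 ± 0.0846 on the log2 scale, while the cell cycle inhibitors Cdkn2c (1.66 ± 0.177) and Cdkn1a (1.17 ± 0.172) and the stress gene Gadd45b (0.41 ± 0.0853) rose.

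The proteins through which the network acts did not move as a block. Of 20 genes of the SIN3 and NCoR corepressors, which the MXD proteins and MNT recruit, 10 rose, 5 fell and 5 did not pass, with a median of 0.31. The histone-binding protein gene Rbbp7 rose by 1.44 ± 0.111 and the deacetylase genes Hdac2 by 1.09 ± 0.0934 and Hdac3 by 0.83 ± 0.0841, while Arid4b and Arid4a had log2 fold changes of -0.88 ± 0.0811 and -0.79 ± 0.0771. Of 22 MYC coactivator genes, 7 rose, 10 fell and 5 did not pass, with a median of -0.13. The ATPase genes Ruvbl2 (1.80 ± 0.107) and Ruvbl1 (1.51 ± 0.125) and the actin-related Actl6a (1.37 ± 0.114) rose, and Ing3 (-1.30 ± 0.0953), Epc1 (-1.12 ± 0.0764) and Epc2 (-0.91 ± 0.103), subunits of the same acetyltransferase complex, fell.

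Of the 11 tested Polycomb partners of MGA, 7 rose, 3 fell and 1 did not pass, with a median of 0.71, while Mga itself fell. Tfdp1, the dimer partner of E2F proteins, went from 20.0 to 26.4 CPM at rest to 136 to 197 CPM after LPS (2.98 ± 0.131), and Cbx3 (1.76 ± 0.128) and Cbx1 (1.09 ± 0.104), which bind methylated histone H3, also rose. The members of this list that fell were Tfdp2 (-1.63 ± 0.302), Rybp (-1.18 ± 0.112) and Ring1 (-0.61 ± 0.0996).

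Of 20 genes for the turnover of MYC protein, 10 rose, 4 fell and 6 did not pass. Plk1 (3.62 ± 0.238) and Aurka (2.81 ± 0.213), mitotic kinases known to stabilise MYC proteins, rose. The ubiquitin ligase genes Fbxo32 (-2.34 ± 0.127) and Btrc (-0.93 ± 0.171) and the kinase gene Gsk3b (-0.54 ± 0.100), which marks MYC for degradation, fell. These are transcript levels, and MYC protein was not measured here. Of 16 regulators of Myc transcription, 8 rose, 7 fell and 1 did not pass. Prdm1, the plasma cell factor known to repress Myc, went from 8.29 to 16.9 CPM at rest to 65.7 to 92.0 CPM after LPS (2.68 ± 0.196), and E2f1 (1.85 ± 0.216) and Fubp1 (0.57 ± 0.0778) rose too. Rel (-2.27 ± 0.0965), Lef1 (-2.23 ± 0.261) and Foxo1 (-1.59 ± 0.140) fell. For all of these lists values are log2 fold changes ± SE, and each gene said to rise or fall had an adjusted p under 0.05 by edgeR, at a background of 34.5% of all genes rising and 35.2% falling.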

How the data were processed

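The members and gene lists were chosen with earlier results of these data known. RNA came from CD43-negative splenic B cells. Per the labels' protocols, total RNA was freed of ribosomal RNA and made into stranded libraries. Per the submitters' processing notes, STAR 2.4.0a, featureCounts (Subread 1.4.6-p1), kallisto 0.42.3, SAMtools and bedtools were used on GRCm38 (mm10). The deposited gene table holds raw counts per gene made by the authors, and the deposited transcript tables hold estimated counts and TPM for 88198 transcripts. The strand setting and annotation version were not given in the sources used here. Annotation headers of the TPM table were shifted, and its columns were read by content. Rows for 93 spike-ins and a row without a gene name (at most 0.0342% of a library) were left out.

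Counts were scaled by TMM and filtered by filterByExpr in edgeR 4.0.16 (R 4.3.3). An additive model of genotype and state, fitted by quasi-likelihood (3 degrees of freedom left, biological coefficient of variation 16%), tested stimulation and each deletion over both states. A fit of 4 groups of 2 libraries (4 degrees of freedom, 25.8%) compared genotypes without and with hs3b and hs4. P-values were adjusted over all 14789 genes tested, at 0.05. The scripts were tested on simulated data. In the additive model the 4 genotypes stand in for replicates of stimulation, and the resting and stimulated libraries for those of a deletion. Its p-values measure how far a change differs between them. In the fit of 4 groups, p-values measure the spread between pools of different genotypes. The spread between pools of the same genotype was not measured. Myc was the base of the likeness ranking among genes with a mean log2 CPM of at least 5, without clone and predicted-gene names. All members were named, and of each list at most 3 genes per direction with the lowest adjusted p, though some genes that meet this rule are not reported here. Estimated counts were summed per gene and rounded for 1 alternative. Other alternatives were DESeq2 1.42.0, its size factors, library size scaling, no filter, no genotype term and leaving out genotypes or libraries. Leaving out the wild-type resting library alone, adding Mga to the summed competitors and the ratios of deposited TPM were chosen after seeing the data.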

Additional observations from a re-analysis of the deposited data

How the results depend on the processing

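For stimulation, the 2 members that rose and the 6 that fell were called in all 11 alternatives, and Max in none. Counts of genes called for the deletions depended on the setting, and the cause was not tested. With library size scaling 73 genes were higher in the 3'RR deletion and 32 in the 3'PAL deletion, and 1 was lower in stimulated libraries without hs3b and hs4. DESeq2's Wald test called 280 genes higher and 245 lower in the 3'RR deletion, 94 and 87 in the hs3b-hs4 deletion, 152 and 103 in the 3'PAL deletion, and, for genotypes without hs3b and hs4, 62 and 14 at rest and 2 and 5 after LPS. With no filter these counts were 404 and 253, 100 and 89, 208 and 105, 59 and 12, and 5 and 3. Kallisto's estimated counts gave 17 and 18 for the hs3b-hs4 deletion. Leaving out a genotype or the wild-type resting library gave 23 to 132 higher and 94 to 159 lower in the 3'RR deletion, 1 to 10 and 4 to 20 in the hs3b-hs4 deletion, and 1 to 62 and 2 to 40 in the 3'PAL deletion. Without the 3'RR deletion 2 genes were higher and 6 lower in the hs3b-hs4 deletion and 27 and 14 in the 3'PAL deletion, without the hs3b-hs4 deletion 40 were lower in the 3'PAL deletion, and without the 3'PAL deletion 20 were lower in the hs3b-hs4 deletion. Without the wild-type resting library alone, 23 genes were higher and 94 lower in the 3'RR deletion, 1 and 4 in the hs3b-hs4 deletion and 1 and 2 in the 3'PAL deletion. No member was called for a deletion in any of these. The ratio of Mxd4 in the resting 3'PAL deletion to the wild-type, 1.11, was 0.976 with library size scaling. On TMM-scaled CPM per kb the change of Myc against its competitors was -1.06, against -1.21 in TPM. Counts near 0 limit Mycn and resting Mxd3.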
